A study of Homo sapiens with 2 samples.

Results

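The oncofetal genes of hepatoma are here genes of the fetal liver that are known to be re-expressed in hepatocellular carcinoma (HCC). Of these, 10 were taken by name out of 61541 genes: AFP, GPC3, IGF2, H19, IGF2BP1, IGF2BP2, IGF2BP3, LIN28B, DLK1 and SALL4. All 10 were found, each once, and all 10 reached the 10 reads over both libraries that were needed to enter the comparison. They were examined in RNA-seq of Huh7, an established human HCC cell line. One library came from cells transfected with a control siRNA (si-NC, here Huh7-NC) and 1 from cells transfected with an siRNA against BRF2 (si-BRF2, here Huh7-si). BRF2 is a subunit of an initiation factor of RNA polymerase III. No difference has a replicate check, because each condition was sequenced as 1 library. The study used more than 1 siRNA against BRF2, and which of them gave this library was not given in the sources used here.

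Several of these genes form a regulatory circuit in the fetal liver. The RNA-binding protein LIN28B blocks the maturation of let-7 microRNAs, and let-7 in turn represses mRNAs that carry matches to its seed, among them those of LIN28B itself and of the IGF2BP proteins. The IGF2BP proteins bind and stabilise mRNAs, including that of the growth factor IGF2, whose gene is imprinted together with the non-coding RNA H19. AFP and GPC3 are the best known serum and tissue markers of HCC, SALL4 is a zinc finger transcription factor of stem cells, and DLK1 is a surface protein of hepatoblasts.

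The let-7 sequences are shown because they connect LIN28B with other genes of the group. The RefSeq table (GRCh38.p14) held 9 distinct mature 5p sequences of let-7 and miR-98, and all 9 had the same seed, GAGGUAG, at bases 2 to 8. Below, 5′ to 3′, the seed is in capitals for the 3 members encoded together on chromosome 9, at chr9:94175962-94175983, chr9:94176353-94176374 and chr9:94178841-94178862 on the plus strand.
hsa-let-7a-5p: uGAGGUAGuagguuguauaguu
hsa-let-7f-5p: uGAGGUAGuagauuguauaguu
hsa-let-7d-5p: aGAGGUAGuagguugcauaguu

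The match to this seed, CTACCTC on the sense strand, was sought in the longest annotated 3′ UTR of each of the 9 protein-coding oncofetal genes (GENCODE release 29, GRCh38). Of the 9, 5 held it, with 4 matches in IGF2BP1, 4 in LIN28B and 1 each in IGF2BP2, IGF2BP3 and SALL4, whereas AFP, GPC3, IGF2 and DLK1 had 0. Of all 19146 protein-coding genes with a 3′ UTR, 9.7% held the match. Long 3′ UTRs hold it more often. Among genes whose 3′ UTR was 0.8 to 1.25 times as long, the share was 29.9% for IGF2BP1, 23.7% for LIN28B, 12.4% for SALL4, 12.2% for IGF2BP3 and 11.4% for IGF2BP2. The match nearest to the stop codon of each of the 5 genes is given below, 5′ to 3′ on the strand of the gene, with the seed match in capitals.
IGF2BP1, chr17:49051062-49051083, plus strand: gtgtgcgaagtaaaCTACCTCa
IGF2BP2, chr3:185644220-185644241, minus strand: acacacagaagaagCTACCTCa
IGF2BP3, chr7:23311795-23311816, minus strand: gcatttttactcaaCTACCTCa
LIN28B, chr6:105078813-105078834, plus strand: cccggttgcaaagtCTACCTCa
SALL4, chr20:51782923-51782944, minus strand: aagctttaatttatCTACCTCa
A match is a string of letters and was not tested as a site in these cells.

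Sequencing gave 22852648 estimated reads on 22683 genes in Huh7-NC and 22089016 on 24735 genes in Huh7-si. Libraries were compared by CPM, the reads of a gene scaled to these totals, and genes by TPM, which also divides by length. Where a gene had 0 reads, up to 3 remain possible, or 0.131 CPM for Huh7-NC and 0.136 for Huh7-si. A gene was called higher or lower when it differed at least 2-fold with p under 0.05 in an exact binomial test on the reads. That test sets 1 library against the other and says nothing of the spread within a condition. All intervals are at 95% (Clopper-Pearson) and account for counting error alone. BRF2, the target, stood at 56.0 CPM in the Huh7-NC library and 16.5 in the Huh7-si library (log2 fold change -1.77, -1.94 to -1.60). Of 15 hepatocyte markers 14 had enough reads, 1 was called higher (APOB, 20889 and 41399 reads, log2 fold change 1.04) and 0 lower, with a median of -0.05, and TMM scaling called 0 higher and 1 lower (APOA1). APOB is a long gene, and it was not 2-fold above genes of like length (median 0.67). Of 12 markers of blood, endothelial and mesenchymal cells, CD3E and DES had 0 reads in both libraries and PTPRC had 5 and 1. Not all were so low, as CD68 had 235 and 244 reads and PECAM1 had 60 and 63, with log2 fold changes of 0.10 and 0.12. The summed TPM of the 12 was 20.8 and 40.8, and 3 of the 5 with enough reads were called higher, the collagen genes COL1A1 (76 and 229 reads), COL1A2 (737 and 1687) and COL3A1 (19 and 44). Their log2 fold changes were 1.64, 1.24 and 1.26. Relative to genes of like length (medians 0.43, 0.42 and 0.42) COL1A1 alone of the 3 was past the threshold. The part of these markers in the results below was not tested. Less RNA per cell and fewer cells of a kind cannot be told apart in such bulk RNA.

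Of the 10 oncofetal genes, 1 was called higher in Huh7-si, SALL4, and 0 were called lower. Over all 17921 genes tested, 13.0% were called higher and 1.18% lower, so 1 of 10 is near the background. The median log2 fold change of the 10 was 0.25, beside 0.21 over all genes tested, and 8 of 10 lay above 0, as did 64.7% of the 17782 genes tested that had reads in both libraries, over which the medians of all genes were taken. For differences of this size the scaling mattered. TMM, which scales to the bulk of genes, moved every gene by -0.20, and the medians became 0.05 for the 10 and 0.01 for all genes, with 7 of 10 and 50.6% above 0. With TMM, 9.25% of all genes were called higher and 2.02% lower, and among the oncofetal genes SALL4 was called higher and DLK1 lower.

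**Figure D1:**
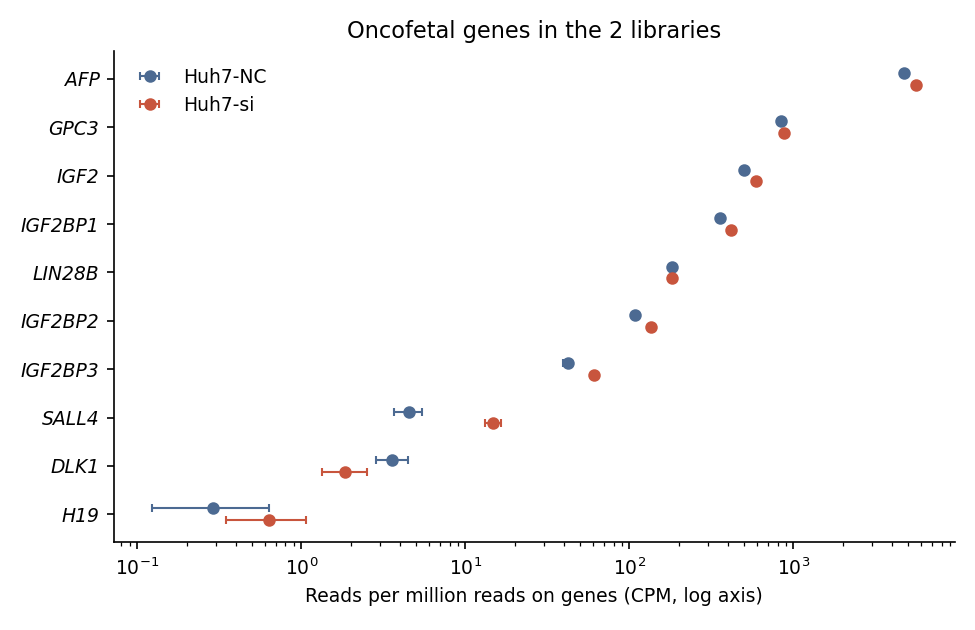
CPM on a log axis for each oncofetal gene in Huh7-NC and Huh7-si, with bars for the 95% counting interval (1 library per condition). AFP lies at 4723 and 5593 CPM, H19 at 0.290 and 0.637, and the 2 points are visibly apart for SALL4 (4.51 and 14.7) and DLK1 (3.59 and 1.86).

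The order of the genes by TPM was AFP, GPC3, IGF2, IGF2BP1, LIN28B, IGF2BP2 and IGF2BP3 in both libraries. DLK1 then stood above SALL4 in Huh7-NC and below it in Huh7-si, and H19 was last in each. Between neighbours, IGF2BP1 and LIN28B did not differ beyond counting error in TPM, at 49.7 (48.6 to 50.7) and 48.5 (47.0 to 49.9) in Huh7-NC and at 65.8 (64.4 to 67.1) and 65.4 (63.4 to 67.4) in Huh7-si. DLK1 and SALL4 overlapped in Huh7-NC, with 2.33 TPM (1.85 to 2.89) and 1.68 TPM (1.37 to 2.04). In Huh7-si they did not, with 1.43 TPM (1.03 to 1.94) for DLK1 and 6.14 TPM (5.49 to 6.85) for SALL4, and there it was H19, with 0.71 TPM (0.388 to 1.19), that overlapped DLK1. The intervals leave out the error of dividing by length.

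SALL4 was the 1 oncofetal gene past the threshold. It had 103 reads in Huh7-NC against 325 in Huh7-si, or 4.51 and 14.7 CPM, and rose 3.26-fold (2.61 to 4.12, exact binomial p = 1.19e-29 on the reads of the 2 libraries). Its log2 fold change was 1.71 on total reads, 1.51 with TMM, 1.87 in TPM and 1.29 relative to genes of like length, whose median was 0.42. SALL4 (ENSG00000101115) lies at chr20:51782331-51802520 on the minus strand. The gene was thus low in both libraries, at rank 12520 by TPM in Huh7-NC and 10149 in Huh7-si. When a biological coefficient of variation of 0.4 was assumed, edgeR's exact test gave p = 0.0502, which misses the threshold.

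The paralogs of SALL4 moved less. SALL1 had 475 and 582 reads, SALL2 had 871 and 1021, and SALL3 had 0 in both. Their log2 fold changes were 0.34 (0.17 to 0.52) for SALL1 and 0.28 (0.15 to 0.41) for SALL2. SALL4 therefore made up 7.11% of the reads of the family in Huh7-NC (5.84 to 8.55) and 16.9% in Huh7-si (15.2 to 18.6), a share that does not depend on the scaling between libraries. SALL4 recruits the histone deacetylase complex NuRD, and of 13 paralogs and NuRD subunits tested 0 were called in either direction, with a median of -0.12. Among them the deacetylases HDAC1 (5058 and 4778 reads) and HDAC2 (6158 and 5248 reads) had log2 fold changes of -0.03 and -0.18.

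DLK1 was the oncofetal gene with the lowest log2 fold change. It had 82 reads in Huh7-NC against 41 in Huh7-si, or 3.59 and 1.86 CPM, and its log2 fold change of -0.95 (-1.53 to -0.39, exact binomial p = 0.000555 on the reads of the 2 libraries) was just short of the 2-fold threshold. It passed the threshold with TMM, at -1.15, and relative to genes of like length, at -1.33, and was -0.70 in TPM. DLK1 (ENSG00000185559), a non-canonical Notch ligand, lies at chr14:100725705-100738224 on the plus strand. On its deposited length of 4657 bases, DLK1 thus differed in the opposite direction from most genes of like length, whose median was 0.38. The TPM of DLK1 was high against its CPM for that length, so the TPM may rest on a shorter one. The value relative to like length holds only for the deposited length.

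DLK1 belongs to the imprinted cluster of 14q32, and the other genes of that cluster were close to silent. Of 7 listed, 2 reached 10 reads, DIO3, a deiodinase that inactivates thyroid hormone, and DIO3OS, a non-coding gene beside it on the other strand that does not overlap it. Both were called higher, DIO3 with 21 and 41 reads (log2 fold change 1.01, 0.22 to 1.85) and DIO3OS with 10 and 37 reads (1.94, 0.90 to 3.11). With TMM, DIO3OS alone of the 2 was called, at 1.74. The paralog DLK2 had 27 and 28 reads. Of 13 Notch pathway genes tested 1 was called higher and 0 lower, the receptor NOTCH2 with 769 and 1779 reads (log2 fold change 1.26, and 1.06 with TMM), whereas the most abundant by TPM, the ligand JAG1 (2151 and 3824 reads) and the target HES1 (722 and 855 reads), had 0.88 and 0.29. The median of the list was 0.29. NOTCH2 is a long gene, and relative to genes of like length (median 0.67) it was not past the threshold.

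**Figure D2:**
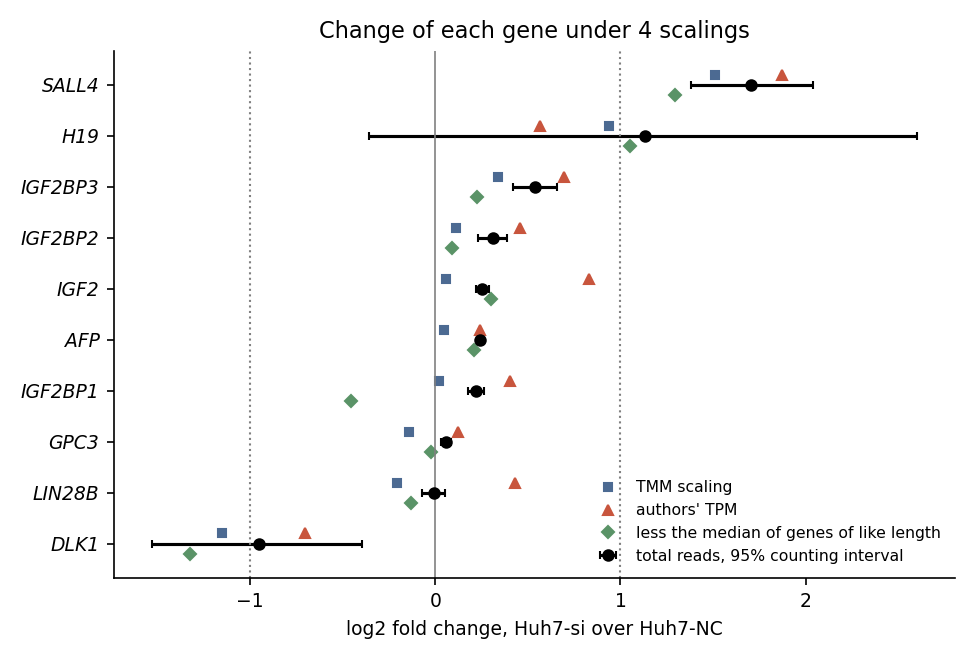
Log2 fold change of each oncofetal gene, Huh7-si over Huh7-NC, on total reads (circles, with the 95% counting interval), with TMM (squares), in the authors' TPM (triangles) and relative to genes of like length (diamonds). Dotted lines mark a 2-fold difference; SALL4 lies beyond it on all 4 scales (1.29 to 1.87), DLK1 lies beyond it on 2 of them, and the interval of H19 spans 0.

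AFP, the fetal counterpart of albumin in serum, was the most abundant of the 10. It had 107941 reads in Huh7-NC against 123538 in Huh7-si, or 0.472% and 0.559% of all reads, and ranked 38 and 20 by TPM. The log2 fold change was 0.24 (0.23 to 0.26), the same in TPM, and 0.05 with TMM. AFP (ENSG00000081051) lies at chr4:73431138-73456174 on the plus strand, in a row with its relatives.

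Of these relatives, ALB, the albumin gene, had 126940 and 113860 reads and GC, the vitamin D binding protein, had 8189 and 6730. Their log2 fold changes were -0.11 and -0.23, both under that of AFP, and 0 of the 3 relatives tested were called. AFM, encoding afamin, had 8 and 10 reads. Within each library, AFP made up 46.0% of the reads on AFP and ALB in Huh7-NC (45.8 to 46.2) and 52.0% in Huh7-si (51.8 to 52.2). In TPM the corresponding shares were 46.2% and 49.6%. Of 12 transcription factors known to act on AFP 0 were called, with a median of 0.20, and the one with the highest mean TPM, the hepatocyte factor CEBPA, had 11601 and 7249 reads (log2 fold change -0.63, -0.67 to -0.59).

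GPC3, a heparan sulfate proteoglycan of the cell surface, had 19304 reads in Huh7-NC against 19414 in Huh7-si, or 845 and 879 CPM. The log2 fold change was 0.06 (0.03 to 0.09), and its sign depended on the scaling, being -0.14 with TMM and -0.02 relative to genes of like length. GPC3 (ENSG00000147257) lies at chrX:133535745-133985895 on the minus strand. It was the dominant glypican, with 96.9% of the reads of the family in Huh7-NC (96.7 to 97.2) and 94.6% in Huh7-si (94.3 to 94.9).

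The other glypicans were scarce. GPC1 rose from 30 to 70 reads (log2 fold change 1.27) and GPC2 from 99 to 193 (1.01), and with TMM only GPC1 remained past the threshold. GPC6 had 442 and 801 reads (0.91), GPC4 had 23 and 28 and GPC5 had 18 and 18. Of 10 glypicans and enzymes that make or modify glypicans and heparan sulfate tested these 2 were called higher and 0 lower, with a median of 0.33. The most abundant of these enzymes, EXT1, which elongates the chain, and NDST1, which sulfates it, had log2 fold changes of 0.23 and 0.34.

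IGF2, a fetal growth factor, was counted at 11385 reads in Huh7-NC against 13121 in Huh7-si, or 498 and 594 CPM. The log2 fold change was 0.25 (0.22 to 0.29) on reads, 0.06 with TMM and 0.83 in TPM. IGF2 (ENSG00000167244) lies at chr11:2129112-2149603 on the minus strand, and 1460 bases of its exons, 20.9% of them, also belong to INS-IGF2, a readthrough gene that joins the insulin and IGF2 genes. The estimated reads of IGF2 therefore depended on how the counting divided shared reads.

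The table placed most reads of the locus on INS-IGF2, which had 49722 in Huh7-NC against 47471 in Huh7-si (log2 fold change -0.02, -0.04 to 0.00). Another overlapping transcript on the same strand, ENSG00000240801, had 610 and 488 reads. A further entry on this strand, ENSG00000284779, shares 5144 exon bases with IGF2 (73.7%) and had 0 reads in both libraries. Pooled, the 3 genes with reads had 61717 and 61080 reads, with a log2 fold change of 0.03 (0.02 to 0.05), -0.16 with TMM and 0.20 in TPM. IGF2 took 18.4% of the pooled reads of Huh7-NC and 21.5% of those of Huh7-si. The pooling was chosen after the data were seen. On total reads the libraries were thus closer over the 3 genes than for IGF2 alone.

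**Figure D3:**
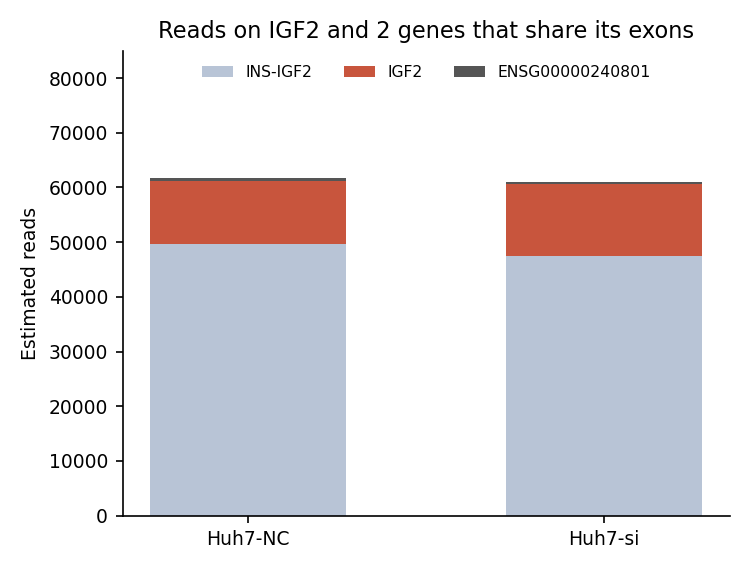
Estimated reads of IGF2, INS-IGF2 and ENSG00000240801, stacked, in Huh7-NC and Huh7-si; the axis starts at 0. The stacks reach 61717 and 61080 reads and INS-IGF2 makes up 80.6% and 77.7% of them.

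The genes around IGF2 signalling gave a broader spread. Of 13 tested, 2 were called higher and 0 lower, with a median of 0.66, and with TMM 1 was called higher (IGF2R) and 1 lower (IGFBP6). IGF2R, the receptor that binds IGF2 and carries it to lysosomes, rose from 4401 to 11315 reads (log2 fold change 1.41, 1.36 to 1.46; 1.21 with TMM). IRS2, an adaptor of the insulin and IGF receptors, rose from 74 to 149 reads (1.06), but was not past the threshold with TMM, at 0.86. The binding protein IGFBP2 had 1321 and 1112 reads (-0.20), and IGF1 had under 2 reads in either library. IGF2R and IRS2 are long genes. Relative to genes of like length (medians 0.67 for IGF2R and 0.54 for IRS2) neither was past the threshold.

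H19, the imprinted non-coding RNA next to IGF2, was close to absent. It had 6.63 estimated reads in Huh7-NC against 14.1 in Huh7-si, or 0.290 and 0.637 CPM. The ratio was 2.20 (0.781 to 6.06, exact binomial p = 0.13 on the reads of the 2 libraries), so a difference was not detectable at this depth. H19 (ENSG00000130600) lies at chr11:1995176-2001470 on the minus strand.

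In the imprinted region of 11p15 that holds IGF2 and H19, 7 of 11 other genes were tested, 1 was called higher and 0 lower, and the median was -0.28. The called gene was KCNQ1OT1, a long antisense RNA of the neighbouring imprinting domain, with 108 and 291 reads (log2 fold change 1.48; 1.28 with TMM). Relative to genes of like length (median 0.67) KCNQ1OT1 was not past the threshold. NAP1L4, a histone chaperone, had 3585 and 2597 reads (-0.42). Outside these regions, 7 other imprinted growth genes were tested and 0 were called, with a median of 0.25. The most abundant of them were PEG10 (20692 and 25583 reads, 0.36) and GNAS (40602 and 32319 reads, -0.28).

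All 3 IGF2BP genes had more CPM in Huh7-si, and none reached a 2-fold difference. IGF2BP1 had 8194 reads in Huh7-NC against 9210 in Huh7-si (359 and 417 CPM, log2 fold change 0.22, 0.17 to 0.26). IGF2BP2 had 2478 and 2968 reads (108 and 134 CPM, 0.31, 0.23 to 0.39). IGF2BP3 had 963 and 1351 reads (42.1 and 61.1 CPM, 0.54, 0.42 to 0.66). By point estimate the order of the changes was the reverse of the order of abundance, but the intervals of IGF2BP1 and IGF2BP2 overlapped.

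Per length the 3 genes were closer to each other than in reads. IGF2BP1 stood at 49.7 and 65.8 TPM, IGF2BP2 at 36.5 and 50.2, and IGF2BP3 at 15.02 and 24.3. Of the reads of the family, IGF2BP1 took 70.4% in Huh7-NC (69.6 to 71.3) against 68.1% in Huh7-si (67.3 to 68.9). IGF2BP3 took 8.28% (7.78 to 8.79) and 9.99% (9.49 to 10.5), and for neither gene did the intervals overlap, whereas those of IGF2BP2 did, at 21.3% (20.6 to 22.1) and 21.9% (21.2 to 22.6).

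With TMM the log2 fold changes were 0.02 for IGF2BP1, 0.11 for IGF2BP2 and 0.34 for IGF2BP3. IGF2BP1, at 8796 bases the longest of the 10 oncofetal genes, was compared with genes of like length whose median was 0.67, and stood at -0.46 relative to them. The corresponding values were 0.09 for IGF2BP2 and 0.23 for IGF2BP3. The genes lie at chr17:48997412-49055650 on the plus strand (IGF2BP1, ENSG00000159217), chr3:185643739-185825056 on the minus strand (IGF2BP2, ENSG00000073792) and chr7:23310209-23470467 on the minus strand (IGF2BP3, ENSG00000136231).

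IGF2BP3 shares 1521 exon bases, 17.9% of its own, with MALSU1, a mitochondrial ribosome gene on the opposite strand. MALSU1 had 1439 and 935 reads, a log2 fold change of -0.57, the opposite direction from IGF2BP3. Strandedness was not given in the sources used here, and without strand the reads of the shared bases cannot be told apart.

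**Figure D4:**
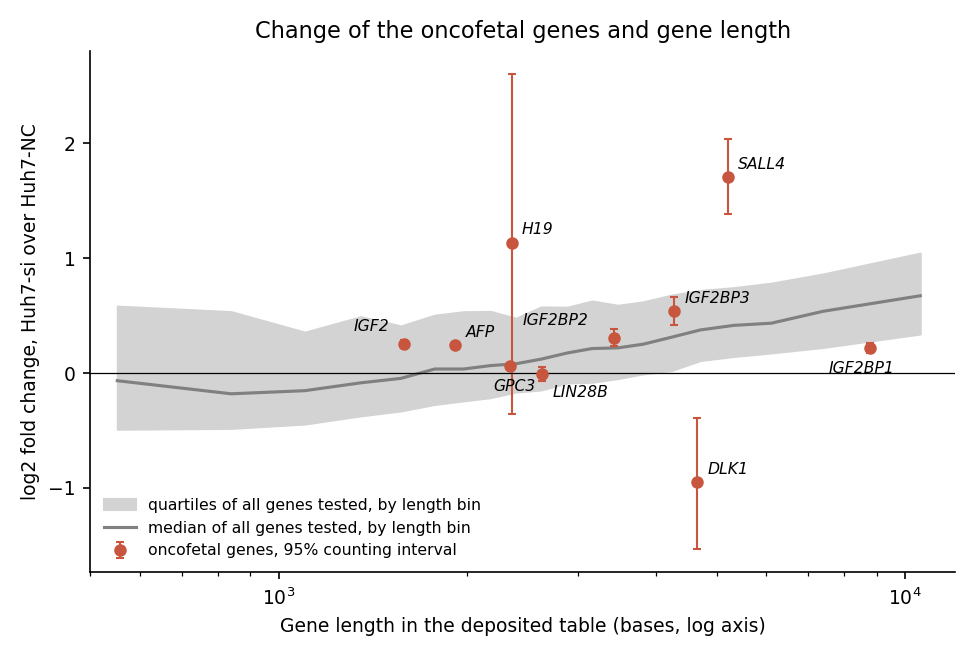
Log2 fold change against gene length (log axis) for the oncofetal genes with 95% counting intervals, over the median (line) and quartiles (band) of all genes tested in 20 bins of length. The median is lowest in the second shortest bin, at -0.18, and highest in the longest, at 0.67, IGF2BP1 lies 0.46 below its bin's median, SALL4 lies 1.29 above and DLK1 1.33 below.

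The IGF2BP proteins read the m6A mark on mRNA, and the enzymes and other readers of that mark were examined with them. Of 16 tested 0 were called, with a median of 0.19 and a range of -0.27 to 0.80. The most abundant were the reader HNRNPA2B1 (35198 and 29412 reads, log2 fold change -0.21) and WTAP, a subunit of the methyltransferase (2694 and 2474 reads, -0.07). Of 8 mRNAs known to be bound by IGF2BP proteins 1 was called higher and 0 lower, with a median of 0.08. The called gene was CD44, a surface receptor for hyaluronan, with 99 and 203 reads (1.09), which was not past the threshold with TMM (0.89). HMGA2, a chromatin protein of embryonic cells, had 6235 and 6301 reads (0.06).

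LIN28B differed least of the 10 on total reads, though not with TMM or in TPM. It had 4175 reads in Huh7-NC against 4012 in Huh7-si, or 183 and 182 CPM, with a log2 fold change of -0.01 (-0.07 to 0.05, exact binomial p = 0.80 on the reads of the 2 libraries). As a ratio this was 0.994 (0.952 to 1.04). LIN28B (ENSG00000187772) lies at chr6:104936616-105083332 on the plus strand. In TPM the gene stood at 48.5 and 65.4, a log2 difference of 0.43, beside a median of 0.39 over all genes tested in TPM. With TMM it was -0.21. The paralog LIN28A had 0 and 3 reads, so LIN28B was by far the more abundant of the pair.

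Among 19 genes tested of the LIN28 and let-7 pathway, 1 was called higher and 0 lower, with a median of 0.32. The called gene was MIRLET7A1HG, named as a let-7a-1 host transcript, with 35 and 97 reads (log2 fold change 1.52, 0.95 to 2.12; 1.32 with TMM). In GENCODE release 29 it lies at chr9:94176458-94177892, between the let-7f and let-7d sequences shown above and holding none of the 3. Its deposited length of 3823 bases is more than that span holds. The reads were thus counted on another model of the gene, whose position was not given in the sources used here. Outside the list, MIRLET7IHG, named as a let-7i host transcript, had 8 and 36 reads (log2 fold change 2.22, 1.09 to 3.54). MIRLET7IHG was also called higher, and stood at 2.02 with TMM, beside a median of 0.67 for genes of like length. The 12 precursor genes of let-7 and miR-98 all had 0 reads in both libraries, and mature let-7 was not measured. The most abundant other genes of the list, HMGA1 (11272 and 8120 reads) and ARID3A (8294 and 7559 reads), had log2 fold changes of -0.42 and -0.09.

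The 5 oncofetal genes with a let-7 seed match differed among themselves. SALL4, with 1 match, rose (log2 fold change 1.71). LIN28B and IGF2BP1, with 4 each, had log2 fold changes of -0.01 and 0.22, and IGF2BP2 and IGF2BP3, with 1 each, had 0.31 and 0.54. The 4 protein-coding genes without a match ranged from -0.95 (DLK1) to 0.25 (IGF2). The ranges of the groups overlapped.

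**Figure D5:**
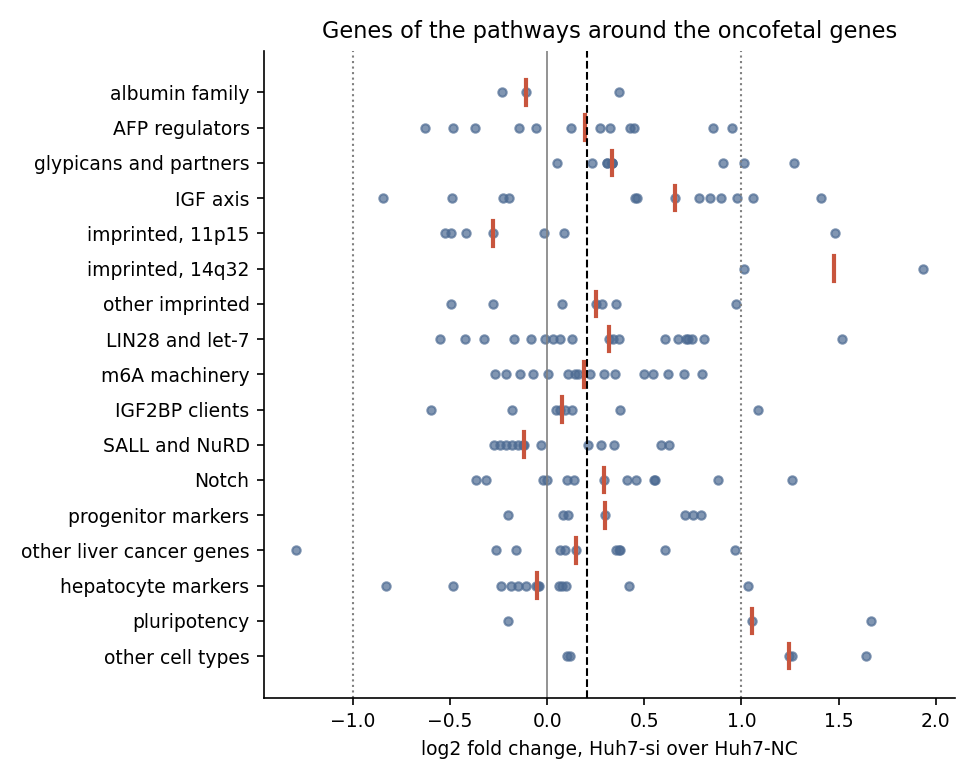
Log2 fold change, Huh7-si over Huh7-NC, of each gene tested in 17 lists of pathway partners and markers (points), with the median of each list (bars), the median of all genes tested (dashed, 0.21) and a 2-fold difference (dotted). Most points lie within 2-fold, and the medians over 1 belong to lists of 2, 3 and 5 genes.

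Over the 17 lists together, 155 distinct genes were tested beside the 10 oncofetal genes, 16 of them (10.3%) were called higher and 1 (0.645%) lower, and their median was 0.21. These shares lie near the 13.0% and 1.18% of all genes. With TMM, 10 were called higher and 3 lower.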

How the data were processed

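Total RNA of transfected Huh7 cells was sequenced, 1 library for si-NC (Huh7-NC) and 1 for si-BRF2 (Huh7-si), as grouped by the sample labels. The authors deposited 1 table with estimated counts of reads per gene (not scaled, partly fractional) and TPM for each library, and a fold (ratio) column, a log2 column and a p-value column of the authors' own comparison, which were not used. The submitters' processing notes name TopHat2 2.0.12, Bowtie2 2.0.6 and GRCh37 without their roles. The quantifier, annotation and strandedness were not given in the sources used here.

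CPM ratios were computed from the estimated counts as deposited. For the two-sided exact binomial test and the 95% Clopper-Pearson intervals (SciPy 1.17.1) counts were rounded to whole reads. Genes with at least 10 reads over both libraries were tested, and called where they differed at least 2-fold with p under 0.05, unadjusted. Alternatives were TMM and upper quartile scaling, an exact test that assumes a coefficient of variation of 0.4 between cultures (edgeR 4.0.16), median of ratios (DESeq2 1.42.0), the authors' TPM, pseudocounts of 0.5 reads and 1 CPM, other filters, a fold of 1.5, Benjamini-Hochberg adjustment, and log2 fold changes relative to genes of like length (20 length bins, median subtracted). Length bins used the deposited gene lengths, which need not be the lengths behind the TPM. In the authors' TPM no test was run, and genes were called on the fold alone. Positions, exons and 3′ UTRs came from GENCODE release 29 (GRCh38), which held 94.8% of the identifiers. Mature microRNAs came from RefSeq (GRCh38.p14). The test was checked on simulated reads.

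The members and lists were chosen with earlier results of these data known. Named were every member, BRF2, paralogs of members, and of each list the called genes (at most 4) and the 2 with the highest mean TPM. MALSU1, the genes that overlap IGF2, PECAM1, and the other cell markers at or near 0, were named for their overlap or as checks after their values were seen. MIRLET7IHG, outside the lists, was also named after its value was seen. R 4.3.3, Python 3.11.15, NumPy 2.4.6, pandas 2.3.3 and matplotlib 3.10.9 were used.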

Additional observations from a re-analysis of the deposited data

How the results depend on the processing

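BRF2 and the direction of AFP, IGF2, IGF2BP2, IGF2BP3, DLK1 and SALL4 were the same under every alternative run, but IGF2 pooled with its overlapping genes was -0.16 with TMM. Called higher in Huh7-si was 1 oncofetal gene, SALL4, but 0 with the assumed coefficient of variation of 0.4. Called lower were 0, but 1 (DLK1) with TMM, median of ratios, upper quartile, a fold threshold of 1.5 and relative to genes of like length. The median log2 fold change of the 10 genes, 0.25, was 0.0506 with TMM, 0.0418 with median of ratios, 0.12 with upper quartile, 0.45 in TPM and 0.15 relative to genes of like length.

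The sign turned for GPC3, at -0.14 with TMM, -0.15 with median of ratios, -0.0739 with upper quartile and -0.0235 relative to like length, for IGF2BP1, at -0.455 relative to like length, and for LIN28B, at 0.43 in TPM. By construction the first 3 scalings shift every gene by 1 constant, and the like-length value subtracts the median of the length bin of the gene. The cause of the turn of LIN28B in TPM was not tested. Companion genes called higher, 16, became 10 with TMM, median of ratios and upper quartile, 28 in TPM, 7 with 1 CPM added, 41 at a fold of 1.5, 0 with the assumed coefficient of variation and 5 relative to like length. Companion genes called lower, 1, became 3 with TMM and median of ratios, 2 in TPM, 5 at a fold of 1.5 and 0 with the assumed coefficient of variation. Over all genes, 2326 higher and 212 lower became 1641 and 374 with median of ratios, 3750 and 347 in TPM, 911 and 43 with 1 CPM added, 1424 and 107 with 10 reads in each library, 4218 and 698 at a fold of 1.5 and 562 and 53 with the assumed coefficient of variation. The counts in TPM rest on the fold alone, without a p threshold, so they are not calls by the same rule.

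No paired analysis was possible because each condition had 1 library, so leaving out a library was not run either. The few reads of H19 and DLK1 left intervals wider than 1 log2 unit.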

Other observations

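Other genes of immature or malignant liver were compared with the oncofetal genes. Of 11 further HCC-associated genes tested 0 were called higher and 1 lower, with a median log2 fold change of 0.15. The called gene was AKR1B10, an aldo-keto reductase, with 184 reads in Huh7-NC against 73 in Huh7-si (log2 fold change -1.30, -1.70 to -0.89; -1.49 with TMM). The growth factor midkine, MDK, had 12202 and 9837 reads (-0.26), and the secreted trypsin inhibitor SPINK1 had 2708 and 2793 (0.09). Of 7 markers of hepatic progenitors tested 0 were called, with a median of 0.30, and the most abundant were the surface protein CD24 (16931 and 17656 reads, 0.11) and the keratin KRT19 (3973 and 3334 reads, -0.20).

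Of 9 genes listed for pluripotency and germ cells, 3 reached 10 reads and 2 were called higher, beside 13.0% of all genes tested, with a median of 1.06. SOX2 had 15 and 46 reads (log2 fold change 1.67, 0.80 to 2.61; 1.47 with TMM) and KLF4 had 193 and 388 (1.06; 0.86 with TMM, not past the threshold). DPPA2 had 25 and 21 reads. POU5F1, with 5 and 0 reads, and NANOG, with 1.14 and 0, were under the minimum and are named after their values were seen.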
